A study of Anas platyrhynchos x Cairina moschata with 205 samples.

Results

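Gene expression was compared between control livers of mule duck embryos at embryonic day 16 (E16, 5 livers) and at E12 (8 livers), that is 13 of the 205 livers of the series. The methods state 8 livers per condition, but the series holds only these 5 E16 control livers. The mule duck is the sterile hybrid of the common duck and the Muscovy duck and is raised mainly for its fatty liver. All these livers belong to the second of 2 trials, in which embryos incubated with a daily increase of temperature (thermal manipulation, TM) were sampled beside control embryos kept at the usual temperature, with 1 incubator per group. The liver samples that the methods describe for that trial begin at E16, and a sampling at E12 is not described. The control embryos received no increase at any day, so that E16 against E12 here is a comparison of developmental days within untreated embryos. The methods place the start of the increase in the TM group after E12, but the sample labels of both groups give E12, like the later days before hatch, as taken 1 h after it, and whether the E12 TM embryos had been heated is therefore not settled by these sources. Each liver comes from a separate embryo. The methods give a single control incubator for that trial, so p-values measure the spread between embryos of that incubator only.

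Expression had been measured by high-throughput real-time PCR on a panel of 92 assays. The deposited value is a relative expression ratio, in which the Ct of a gene (the PCR cycle at which its product crosses the detection threshold, so that a lower Ct means more transcript) is set against the geometric mean Ct of 4 reference assays of the same liver and then against the average over the livers of the trial. The reference assays were HPRT1, STAB1, USP9X and luciferase, an exogenous RNA added before reverse transcription. Ratios are given on the log2 scale, where a difference of 1 is 1 PCR cycle or a doubling. The members are the genes other than the reference assays with a ratio in at least 3 E16 and 6 E12 livers, which was the case for 84 of 88. ChREBP, a glucose-sensing transcription factor, and DGAT2, an enzyme of triglyceride synthesis, had values in 4 E16 and 5 E12 livers, PPARG in 3 and 5, and SCD1, the stearoyl-CoA desaturase, in 2 and 4, and these genes were not tested.

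In the bird embryo the yolk is the main fuel. Its lipids are taken up through the yolk sac, carried as lipoproteins, and burnt in mitochondria and peroxisomes, while the liver makes little fatty acid of its own before hatching and begins abundant lipogenesis with the carbohydrate-rich diet that follows. CPT1 controls the entry of long-chain fatty acids into mitochondria, and PPARA is the nuclear receptor that governs many genes of fatty acid oxidation. Thyroid hormone, set by the deiodinases and read by nuclear receptors that bind co-repressors such as NCOR, accompanies the maturation of the liver.

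E16 replicate 7 stood apart from the other 12 livers. Differences of the genes it was measured in are given with and without it, and for all other genes it has no part in the values. It had a Ct for 24 assays and a ratio for 21 genes, whereas the others had 82 to 92 ratios. Its median Ct was 23.6, against 18.7 to 20.2 in the other livers, and luciferase was the only one of the 4 reference assays with a Ct. ALB, the serum albumin and the most abundant transcript of the panel, crossed the threshold at 23.7 cycles in this liver, against 7.20 to 8.68 in the other E16 livers and 7.00 to 9.94 in E12 livers. Its Ct was missing for the hepatocyte markers APOB, CYP2C, HNF4 and LIPC. These 5 hepatocyte markers were detected in all other 12 livers. The marker of immune cells, the cytokine IL18, had a Ct of 16.3 in replicate 7, against 17.5 to 21.2 in the other E16 livers and 17.0 to 22.3 in E12 livers, with no deposited ratio and a log2 ratio of 7.04 when recomputed. The part of immune cells in the values of this liver was not tested. Of the 21 genes with a ratio in replicate 7, 11 were lower and 5 were higher than in all other E16 livers. These ratios, and the recomputed one of IL18, are set against luciferase alone, at 22.7 cycles. The geometric mean of the 4 reference assays was 18.8 to 19.9 in the other E16 livers, so ratios of replicate 7 come out higher by comparison. ATG4B and DNMT3A, among the 5 higher, had Ct of 21.7 and 21.5. The other E16 livers had 18.2 to 19.5 and 18.7 to 19.1, that is more transcript on the Ct. A second property of the files touches single genes: 18 values with a Ct in these 13 livers had no ratio. Recomputed from the Ct, 16 of them lay above and 2 below all deposited ratios of that gene on that day (replicate 7 left out of the range).

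Most genes had lower ratios at E16 than at E12. The median difference over the 84 genes was −0.52 on the log2 scale, with 70 genes lower and 14 higher at E16, and −0.51 without replicate 7, with 69 lower and 15 higher. In limma with the Benjamini-Hochberg adjustment no gene passed an adjusted p of 0.05 with the 5 livers (smallest adjusted p = 0.14) or without replicate 7 (smallest adjusted p = 0.158), while 20 genes, all lower at E16, were under 0.05 before adjustment with the 5 livers. By the exact two-sided permutation test of each gene, 25 of 84 genes were under an unadjusted p of 0.05, all of them lower at E16 (29.8% lower, 0% higher), and 23 without replicate 7 (27.4% lower, 0% higher), when ALB and EIF3 no longer passed. None of these passed after adjustment over the 84 genes (smallest adjusted exact permutation p = 0.0727). The share of 29.8% is the background against which the count in each group of genes is to be read.

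**Figure D1:**
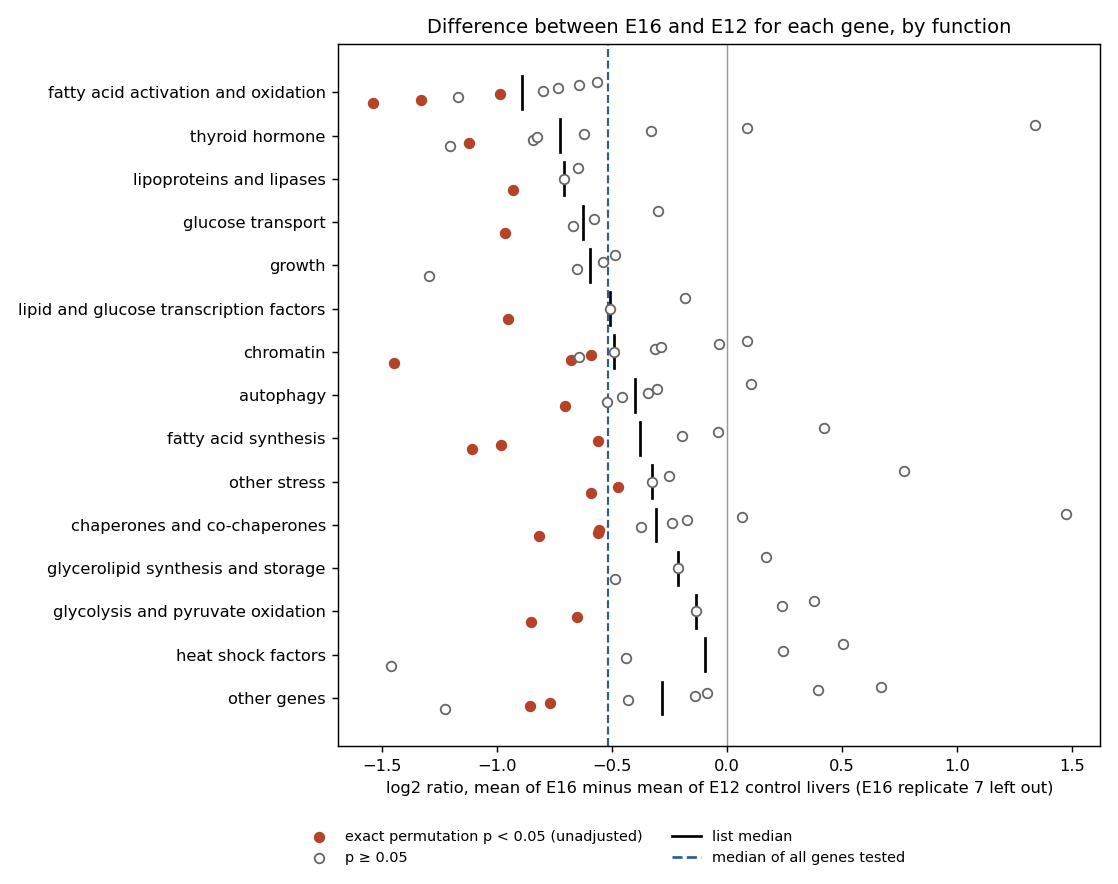
Each point is a gene, placed on the horizontal axis by its mean log2 ratio in E16 control livers minus that in E12 control livers without E16 replicate 7, in rows by function. Filled points are under an unadjusted exact permutation p of 0.05, black bars are the medians of a row and the dashed line is the median of all genes tested, −0.51. The filled points all lie to the left of 0, and the row of fatty acid activation and oxidation has the lowest median, −0.89.

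The size of this general shift depends on what a liver is set against. Without replicate 7, the geometric mean Ct of the 4 reference assays was 19.4 ± 0.539 at E16 (SD, n = 4) and 20.0 ± 0.360 at E12 (n = 8), a difference of −0.605 cycles (exact permutation p = 0.0424). With replicate 7, whose value is that of luciferase alone, it was 20.0 ± 1.56 at E16 (n = 5), and the difference was 0.0596 cycles, in the other direction (p = 0.942, exact). STAB1, a scavenger receptor expressed by endothelial cells of the sinusoids, had a Ct of 18.4 ± 0.258 at E16 and 19.3 ± 0.576 at E12 (exact permutation p = 0.0202, or 0.0808 adjusted over the 4 reference assays). HPRT1, an enzyme of purine salvage, had 20.1 ± 1.27 at E16 and 21.4 ± 0.849 at E12 (exact permutation p = 0.0606, adjusted 0.121). Luciferase had 21.7 ± 1.02 at E16 without replicate 7 and 22.3 ± 1.23 at E12 (p = 0.438 by the same exact test), a difference of −0.577 cycles that was −0.387 with replicate 7, and USP9X, a deubiquitinase, 17.5 ± 0.669 at E16 and 17.3 ± 0.556 at E12 (p = 0.592, exact). The mean Ct of the 63 genes with a ratio in all 12 livers, in contrast, was 18.3 ± 0.588 at E16 and 18.4 ± 0.535 at E12, a difference of −0.124 cycles (exact permutation p = 0.725). On the Ct alone, with no reference assay and without replicate 7, the median difference over the 84 genes was 0.07 in the direction of more transcript at E16, and no gene was under 0.05 by the exact permutation test. When each liver was instead centred on the mean of those 63 genes, the median difference was −0.04. These genes are among the 84 tested, so centring by itself brings the median near 0 and does not measure the general shift. After it, 6 genes were lower (7.14%) and 3 were higher (3.57%) at E16 by the unadjusted exact permutation test. The lower genes were ALDH3A2, CPT1, ELP3, LIPC, NCOR and PPARA, and the higher ones CYP2C, ATG4B and PLIN2. None of them passed after adjustment over the 84 genes (adjusted exact permutation p = 0.382 for NCOR, ELP3, LIPC and CYP2C). On the Ct alone none passed either. The exact p-values after centring given below for single genes are unadjusted as well. A difference near −0.51 in the ratios is therefore that of the median gene, and the differences of single genes are to be read relative to it.

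**Figure D2:**
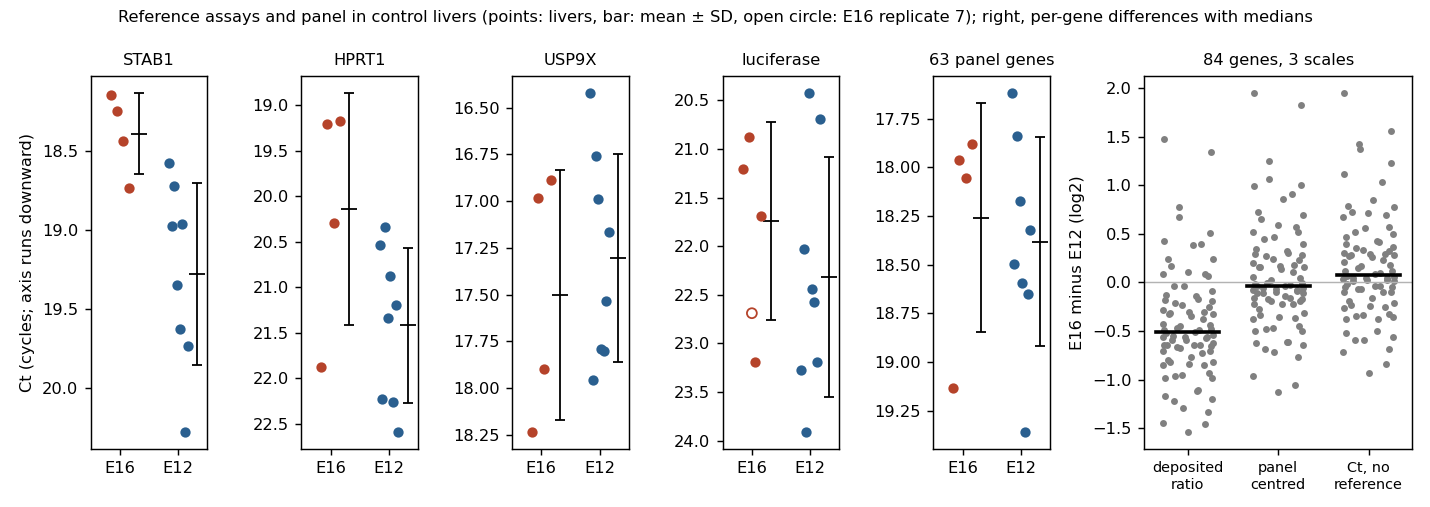
The first 5 panels show the Ct per control liver, on an axis that runs downward so that more transcript is higher, for the 4 reference assays and for the mean of 63 panel genes, with E16 left of E12, bars for the mean ± SD without E16 replicate 7 and an open circle for that liver. The last panel shows the E16 minus E12 difference of the 84 genes on 3 scales, with black lines at the medians of −0.51 for the deposited ratio, −0.04 after centring on the panel and 0.07 for the Ct with no reference.

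Genes of fatty acid activation and oxidation had the lowest median of all groups on the deposited ratios. All 8 had lower means at E16, with a median difference of −1.08 with the 5 livers and −0.89 without replicate 7, beside −0.52 and −0.51 over all genes tested, and 3 of 8 passed the unadjusted exact test. After centring on the panel without replicate 7 all 8 were still below 0, with a median of −0.41 and 2 of 8 past the test. Over all genes tested 47 of 84 were then below 0, and 6 of 84 (7.14%) were lower past the test. All 4 growth genes and all 3 lipoprotein genes were below 0 as well. Within the oxidation group ACAD11 (−0.02) and ALDH7A1 (−0.08) lay close to 0. For CPT1 and ACAD11 the centred values leave out E16 replicate 3, which had a Ct but no ratio. Its recomputed ratios, 1.77 for CPT1 and 1.37 for ACAD11, lay above those of the other E16 livers. The counts after centring do not include them. On the Ct alone the median E16 minus E12 difference of the oxidation genes was 0.23 cycles, that is less transcript at E16, with none past the test. ACAD11 (−0.56 cycles) and ALDH7A1 (−0.04 cycles) ran toward more transcript at E16. On the Ct the 3 lipoprotein genes tested had a median of 0.32 cycles, and with ratios recomputed from all deposited Ct without replicate 7 their median was −0.91, against −0.83 for the oxidation genes, so that on these scales the oxidation genes did not have the lowest median. Leaving out any further liver beside replicate 7 gave a median of the oxidation genes between −1.27 and −0.64, and 8 of 8 were lower each time. Over all genes tested in the same runs the median moved between −0.69 and −0.37, and 64 to 72 genes were lower.

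CPT1, the carnitine palmitoyltransferase, had log2 ratios of −0.46, −0.34, 0.57 and −5.56 in E16 replicates 1, 2, 4 and 7, against −0.07, 0.73, 1.06, 1.37, 1.41, 1.67, 1.70 and 2.19 in the E12 livers. Replicate 7 lay far below all others, and without it the E16 and E12 livers still overlapped by 1 liver on each side. The difference was −2.70 with replicate 7 (exact permutation p = 0.00404) and −1.33 without it (SE 0.44, p = 0.0121 by the same exact test), a ratio of 0.398. E16 replicate 3 had a Ct for CPT1 but no ratio, and the recomputed value, 1.77, was above the other E16 livers. With it and without replicate 7 the difference was −0.87 and did not pass (exact permutation p = 0.115).

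ALDH3A2, a fatty aldehyde dehydrogenase, had the largest difference of all 84 genes without replicate 7, which had no value for it. The 4 E16 livers had 0.35, −1.01, −0.11 and −0.80, against a range of −0.19 to 2.17 with a median of 1.44 in the 8 E12 livers. The 2 lowest E12 livers lay within the E16 range and the 6 others above it. The difference was −1.54 (SE 0.49, exact permutation p = 0.0202), a ratio of 0.344, and −1.06 after centring on the panel (exact permutation p = 0.0424).

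Among the genes of the group that did not pass, ACAA2 and ACAT1, thiolases of the last step of beta-oxidation and of ketone body metabolism, differed by −1.17 (SE 0.66) and −0.80 (SE 0.52), with a wide spread among the 4 E16 livers, from −2.23 to 1.69 for ACAA2 and from −1.19 to 2.08 for ACAT1. ACSL1, which activates long-chain fatty acids, differed by −0.64, ALDH7A1 by −0.57, and ACAD11, an acyl-CoA dehydrogenase, by −1.20 with replicate 7 and −0.73 without it, or by −0.05 without it once a blank value of E16 replicate 3 was recomputed from its Ct.

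**Figure D3:**
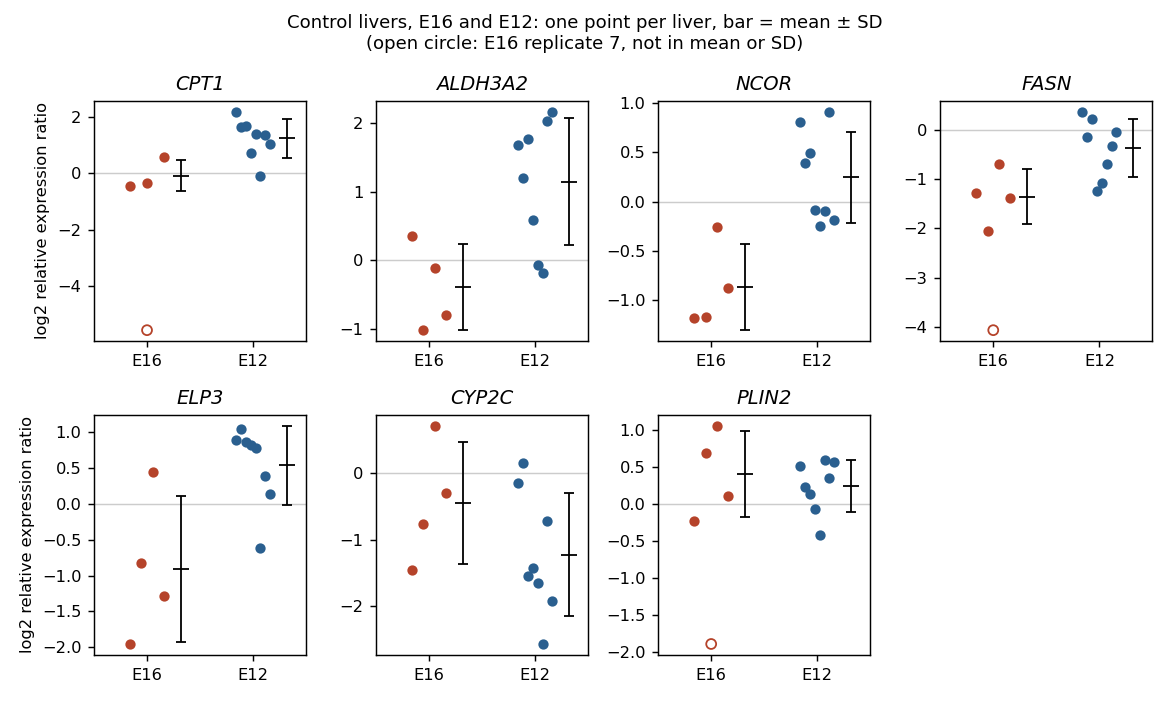
Log2 relative expression ratio of 7 genes in each control liver (vertical axes), E16 left of E12, with the mean ± SD beside the points and E16 replicate 7 as an open circle outside the mean. CPT1, ALDH3A2, NCOR, FASN and ELP3 have lower means at E16, and the E16 and E12 livers do not overlap for NCOR only. CYP2C and PLIN2 have means of −0.45 and 0.41 at E16, against −1.22 and 0.24 at E12, and overlap.

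Receptors and transcription factors of lipid metabolism and the lipoprotein genes gave 2 further genes past the unadjusted exact test. PPARA had −1.29, −1.26, 0.47 and −0.37 at E16, against −0.12 to 1.03 at E12. Replicates 1 and 2 were low and replicate 3 lay within the E12 range. The difference was −0.95 (SE 0.36, exact permutation p = 0.0303) and −0.47 after centring on the panel (p = 0.0343, exact). HNF4, a hepatocyte nuclear factor, differed by −0.51 and LXRA, the oxysterol receptor, by −0.18, at or above the median gene. LIPC, the hepatic lipase, had −0.73, −1.09, 0.77 and −0.11 at E16, against 0.10 to 1.17 at E12, a difference of −0.93 (SE 0.35, exact permutation p = 0.0222) that was −0.45 after centring (p = 0.0182, exact). APOB, the structural protein of the lipoproteins that leave the liver, differed by −0.71 (SE 0.35, exact permutation p = 0.0646), and VLDLR, a lipoprotein receptor, by −0.65 without replicate 7 and −0.20 with it. LDLR4, an assay annotated as a low density lipoprotein receptor class A domain protein and not as the LDL receptor, differed by −1.46 with replicate 7 (p = 0.00777 by the exact test) and by −0.86 without it (p = 0.0202, exact). After centring without replicate 7, LDLR4 differed by −0.37 and did not pass.

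In fatty acid synthesis 5 of the 6 genes tested were lower at E16, with a median of −0.38 that lies above that of all genes, and 3 passed the unadjusted exact test. FASN, the fatty acid synthase, had −1.28, −2.05, −0.70, −1.38 and −4.06 in E16 replicates 1, 2, 3, 4 and 7, against −1.24 to 0.36 at E12. The 3 lowest E12 livers lay within the range of the E16 values. The difference was −1.52 with replicate 7 (exact permutation p = 0.00544) and −0.98 without it (SE 0.36, p = 0.0222, exact). ACC, the acetyl-CoA carboxylase that makes malonyl-CoA, averaged −1.57 ± 1.04 at E16 (SD, n = 4) and −0.46 ± 0.68 at E12 (n = 8, exact permutation p = 0.0444), with E16 replicate 1 the lowest at −3.04. ACLY, which supplies cytosolic acetyl-CoA, averaged −0.55 ± 0.35 at E16 and 0.01 ± 0.42 at E12 (n = 4 and 8, exact permutation p = 0.0485). After centring on the panel none of the 3 passed, and ACLY differed by −0.08. ME, the malic enzyme, differed by −0.096 with replicate 7 and −0.040 without it, and ELOVL6, an elongase, by −0.19. ACSS, annotated as acyl-CoA synthetase short chain family member 1, had the higher mean at E16 (difference 0.42, exact permutation p = 0.612). The lists place ACSS here and not with the oxidation genes, so the count of 8 of 8 lower in that group leaves it out.

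The glycerolipid genes stood among the groups nearest to 0. GPAT1, which begins glycerolipid synthesis, differed by −0.49, CEPT1, which makes phosphatidylcholine and phosphatidylethanolamine, by −0.21, and PLIN2, the coat protein of lipid droplets, by −0.29 with replicate 7 and 0.17 without it. For PLIN2 the 4 other E16 livers had −0.22, 0.70, 1.07 and 0.11, against −0.42 to 0.60 at E12. After centring on the panel without replicate 7 PLIN2 was higher at E16 by 0.65 (exact permutation p = 0.0444).

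Among genes of glucose metabolism, the glycolytic enzymes GAPDH and ENO1 passed the unadjusted exact test. GAPDH had −0.81, −0.87, 0.51 and −0.30 at E16, against −0.06 to 1.32 at E12 (difference −0.85, exact permutation p = 0.0323), and ENO1 −1.02, −0.78, 0.29 and −0.57, against −0.34 to 0.63 (difference −0.65, exact permutation p = 0.0343). In both, replicate 3 was the only E16 liver within the E12 range. After centring on the panel, GAPDH and ENO1 differed by −0.37 and −0.17 and did not pass. The hexokinases HK1 and HK2 had higher means at E16, by 0.24 and 0.38 (p = 0.624 and 0.657 by the exact permutation test), and PDHA1, a subunit of pyruvate dehydrogenase, differed by −0.13. INSR, the insulin receptor, averaged −0.57 ± 1.12 at E16 and 0.40 ± 0.27 at E12 (SD, n = 4 and 8, exact permutation p = 0.0364), and by −0.48 after centring it did not pass. The glucose transporters GLUT1, GLUT2 and GLUT3 differed by −0.58, −0.67 and −0.30 with none past the test.

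NCOR was one of 2 genes whose E16 and E12 livers did not overlap without replicate 7 (2 of 84, 2.38%). NCOR, a nuclear receptor co-repressor, had −1.19, −1.17, −0.26 and −0.87 at E16, against −0.24, −0.19, −0.10, −0.09, 0.39, 0.49, 0.81 and 0.91 at E12. The gap between the highest E16 and the lowest E12 liver was small. The difference was −1.12 (SE 0.31, exact permutation p = 0.00404, limma adjusted p = 0.14) and −0.64 after centring on the panel (p = 0.00808, exact). Among the other genes of thyroid hormone action, DIO1, the activating deiodinase, had −1.79, −1.88, 0.25 and −1.40 at E16, against −0.96 to 0.20 at E12 (difference −0.84, exact permutation p = 0.0606). In DIO1, 3 E16 livers lay below all E12 livers and replicate 3 lay above them all. DIO3, the inactivating deiodinase, differed by −0.33, SLC16A10, a transporter of thyroid hormone and aromatic amino acids, by −1.20 (SE 0.59, exact permutation p = 0.0909), and THRB, the beta receptor, had the higher mean at E16, by 1.07 with replicate 7 (p = 0.354, exact) and 1.34 without it (SE 1.00, p = 0.291, exact), with E12 livers spread from −5.96 to 0.59. ALB, which binds thyroid hormone in plasma, differed by −3.82 with replicate 7 (exact permutation p = 0.0202) and by −0.82 without it (p = 0.109, exact). With a blank value of E16 replicate 3 recomputed from its Ct, and without replicate 7, the ALB difference was −0.40 (p = 0.461, exact).

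TUBA1C, an alpha-tubulin, was the other gene without overlap. It had −0.32, −0.63, 0.62, 0.24 and −3.43 in E16 replicates 1, 2, 3, 4 and 7, against 0.67 to 0.83 in 6 E12 livers. The E12 livers were very close to each other, but 2 E12 values with a Ct had no ratio, and recomputed they were 0.16 and 1.30, within and above the E16 range. With them and without replicate 7 the difference was −0.76 (p = 0.0101, exact) and the groups overlapped. Deposited ratios of TUBA1C centred on the panel, without replicate 7, differed by −0.27 and did not pass. EIF3, a translation initiation factor, differed by −1.11 with replicate 7 (p = 0.0404, exact permutation) and by −0.43 without it (p = 0.178, exact).

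Of the genes of chromatin, 8 of 9 were lower at E16, with a median of −0.49 and 3 past the unadjusted exact test. ELP3, the acetyltransferase subunit of Elongator, had −1.95, −0.83, 0.45 and −1.29 at E16, against −0.62 to 1.04 at E12, a difference of −1.45 (SE 0.43, exact permutation p = 0.0101) and of −0.96 after centring on the panel (p = 0.0121, exact). Replicate 3 lay among the E12 livers. TET1, which oxidises 5-methylcytosine, averaged 0.18 ± 0.35 at E16 and 0.85 ± 0.26 at E12 (n = 4 and 8, exact permutation p = 0.00606), and RBBP4, a histone-binding subunit of several chromatin complexes, 0.25 ± 0.44 at E16 and 0.84 ± 0.30 at E12 (p = 0.0162, exact). After centring, TET1 and RBBP4 differed by −0.19 and −0.11 and did not pass. The growth genes HGF, FGFR2, TGFb1 and TYMS had lower means at E16, between −1.30 (TGFb1 without replicate 7, −0.95 with it) and −0.48, with none past the test. HGF and TGFb1 were also the markers of mesenchymal cells fixed for the comparison, IL18 that of immune cells and STAB1 that of endothelium. Their part in the shifts of the hepatocyte genes was not tested, and in whole liver fewer cells of a type and less transcript per cell cannot be told apart.

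Chaperones assist protein folding and heat shock factors switch on their genes. Of 8 chaperones and co-chaperones, 6 were lower at E16 (median −0.31) and 3 passed the unadjusted exact test, namely HSP90AA1, the cytosolic HSP90, at −0.30 ± 0.42 at E16 and 0.25 ± 0.25 at E12 (SD, n = 4 and 8, exact permutation p = 0.00606), Hsp10, the mitochondrial co-chaperonin, with a difference of −0.82 (p = 0.0283, exact), and HSPA5, the chaperone of the endoplasmic reticulum, with −0.56 (p = 0.0465, exact). After centring on the panel these were −0.07, −0.34 and −0.08 and none passed. HSPA2, an HSP70, had the highest difference of all 84 genes on the deposited ratios without replicate 7, 1.47 (SE 1.28, p = 0.345 by the exact test, or 1.05 and 0.453 with it), on values that ran from −2.06 to 3.15 in the 4 E16 livers and from −4.13 to 3.24 at E12. E12 replicate 8 had a Ct for HSPA2 but no ratio, and its recomputed value was 4.18. With it and without replicate 7 the HSPA2 difference was 0.95 (p = 0.554, exact), below that of THRB at 1.34. The heat shock factors HSF1, HSF2 and HSF3 and the binding protein HSBP1 were between −1.46 (HSF1 without replicate 7, −0.90 with it) and 0.51, with none past the test. For HSF1 the E12 spread was set by replicate 3 at −7.45, against 0.15 to 1.60 in the other E12 livers. Without that E12 liver, and with replicate 7 at E16, the HSF1 difference was −1.97 (exact permutation p = 0.0121). That liver is singled out here by its own HSF1 value, so this p is no support for a difference. With it kept, the exact permutation p was 0.695 with replicate 7 and 0.588 without it.

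In autophagy, WIPI1 was the one gene of 6 past the test. It had −0.55, −0.15, −0.15, −0.08 and −1.13 in E16 replicates 1, 2, 3, 4 and 7, against −0.26 to 1.03 at E12, a difference of −0.88 with replicate 7 (exact permutation p = 0.00388) and −0.70 without it (SE 0.27, p = 0.0141, exact), and of −0.22 after centring. ATG4B, the protease that processes ATG8 proteins, differed by 0.23 with replicate 7 and 0.11 without it, and by 0.59 after centring without it (p = 0.0424, exact). Among other stress genes, ATF4, the transcription factor of the integrated stress response, averaged −0.26 ± 0.39 at E16 and 0.33 ± 0.34 at E12 (n = 4 and 8, exact permutation p = 0.0263). TIA1, an assay that its annotation describes as TIA1-like 1, differed by −0.43 with replicate 7 (p = 0.0152, exact) and −0.47 without it (p = 0.0212, exact). After centring without replicate 7, ATF4 and TIA1 differed by −0.11 and −0.04 and did not pass. CYP2C, a cytochrome P450 assay that its annotation describes as CYP2E1, ran the other way. It had −1.46, −0.77, 0.71 and −0.29 at E16, against −2.56, −1.92, −1.65, −1.54, −1.43, −0.72, −0.14 and 0.16 at E12, with overlap across most of the range. The difference was 0.77 (SE 0.52, exact permutation p = 0.2) on the deposited ratios, and 1.25 (p = 0.0162, exact) after centring on the panel.

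The 4 E16 livers other than replicate 7 were not alike. Replicate 3 was the highest of the 4 in 46 of the 76 genes measured in all of them, and replicates 1 and 2 were the lowest in 30 and 35. The panel mean log2 ratio was −0.60, −0.45, 0.54 and −0.09 in E16 replicates 1, 2, 3 and 4, against −0.32 to 0.67 in the E12 livers. Without replicate 3 and with replicate 7 kept, 14 genes, all lower at E16, passed limma's adjusted p of 0.05, among them ELP3, DIO1, INSR, LIPC, PPARA, NCOR and FASN. Without both replicates 3 and 7 there were 16, of which 13 were shared with the 14. Replicate 3 is singled out here by its own high values, so these counts are no support for a difference. With it kept, no gene passed in the same fit, with or without replicate 7. Without replicates 1 or 2 the genes past the unadjusted exact test numbered 12 and 11 in place of 25, and 9 each time when replicate 7 was left out as well. In a limma fit on all control livers of the trial, where the other days share in estimating the spread, 12 genes, all lower at E16, passed the adjusted p with replicate 7 in the fit. Without replicate 7 only NCOR passed in that fit (adjusted p = 0.0172 in limma).

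The same 2 days were also sampled in the TM group, which differs from the controls at E16 by its daily heating and at both days by its incubator. Heating and incubator cannot be told apart here. At E12 the TM group should not yet differ in heating by the methods, but by the labels it may, as given above, and the contrast between the groups rests on this. In TM livers the median difference between E16 (8 livers) and E12 (8 livers) was −0.31, with 1 of 83 genes past limma's adjusted p (1.2%). The difference between the 2 changes, control minus TM, was tested by a limma interaction contrast. No gene of 82 passed the adjusted p (smallest adjusted p = 0.234), and 9 were under 0.05 unadjusted, all with the lower change in control livers (11%). They included CPT1, ALDH3A2, ACAA2 and ACAT1 of the group of fatty acid oxidation, and NCOR, ALB, GPAT1 and LDLR4. Without E16 control replicate 7 the contrast was −1.31 for CPT1, −1.93 for ALDH3A2, −1.88 for ACAA2, −1.33 for ACAT1 and −1.10 for NCOR, each still under 0.05 unadjusted, and 8 of 82 genes were under it (smallest adjusted p = 0.332). In the TM livers themselves the 8 oxidation genes had a median difference of 0.15, with ALDH3A2 at 0.39, ACAA2 at 0.71 and ACAT1 at 0.53. The median contrast was −1.15 over the 8 genes and −0.31 over all 82 without replicate 7, with replicate 7 −1.16 and −0.33.

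These contrasts depended on the scale as well. After centring on the panel without replicate 7, the median over all genes was 0.01, a value that centring by itself brings near 0. Genes under 0.05 unadjusted in limma then lay in both directions, 6 with the lower change in control livers (7.32%) and 4 with the higher one (4.88%). With replicate 7 they were 8 lower (9.76%) and 6 higher (7.32%). Each liver was centred on those of the 63 panel genes that had a ratio in it. E12 TM replicate 8, with 61 ratios in all, and E16 control replicate 7, with 21, did not have them all. Their centres therefore rest on other sets of genes than those of the control livers without blanks. The lower ones without replicate 7 included ALDH3A2 (−1.61), NCOR (−0.82), CPT1 (−0.73), ACAT1 (−0.98) and APOB (−0.50), and ACAA2 (−1.58) was not among them. The higher ones were EZH2, a histone methyltransferase (0.81), SIRT1, a deacetylase (1.11), HNF4 (0.89) and HK1 (1.56). Without replicate 7 and with no reference assay the median over all genes was 0.75, in the opposite direction to that of the deposited ratios, and the 16 genes under 0.05 unadjusted were all higher in the controls. Some TM livers had many values with a Ct but no ratio, namely 30 in E12 replicate 8, 13 in E12 replicate 2 and 16 in E16 replicate 5. The control livers of these days had at most 5 each. With ratios recomputed from all deposited Ct, which fill these values, only 3 genes, ALDH3A2, LDLR4 and NCOR, were under 0.05, and ALDH3A2 and NCOR without replicate 7. On the deposited ratios, with these blanks not filled, the E12 livers of the 2 groups also differed in genes of the contrast. ALDH3A2 averaged −0.20 ± 0.99 in E12 TM livers (SD, n = 7) and 1.15 ± 0.93 in E12 control livers (n = 8), and ACAA2 −0.39 ± 0.83 in E12 TM livers and 1.06 ± 0.97 in E12 control livers. Whether these are differences between the incubators, or differences before or after a first heating, was not tested. Against the E12 TM livers, the E16 control livers differed by −0.19 for ALDH3A2 (exact permutation p = 0.742), by 0.28 for ACAA2 (p = 0.709, exact) and by −0.77 for NCOR (p = 0.0333, exact). Of the 25 genes past the unadjusted exact test against the E12 controls, 18 also passed against the E12 TM livers, and ALDH3A2, ATF4, HSP90AA1, HSPA5, INSR, RBBP4 and TIA1 did not. Without replicate 7 this was 13 of 23. Genes not past the test against the E12 controls also passed against the E12 TM livers with replicate 7. Among them were HDAC9 (p = 0.0143, exact), HNF4 (p = 0.0141, exact), BNIP3 (p = 0.0155, exact) and SLC16A10 (p = 0.0323, exact). The 18 of 25 are therefore not to be read as a replication. The same E16 control livers stand in both tests, so that the second is not independent of the first. Between E12 TM and E12 control livers, 7 of 83 genes were under 0.05 unadjusted in limma (8.43%) and none passed the adjusted p.

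**Figure D4:**
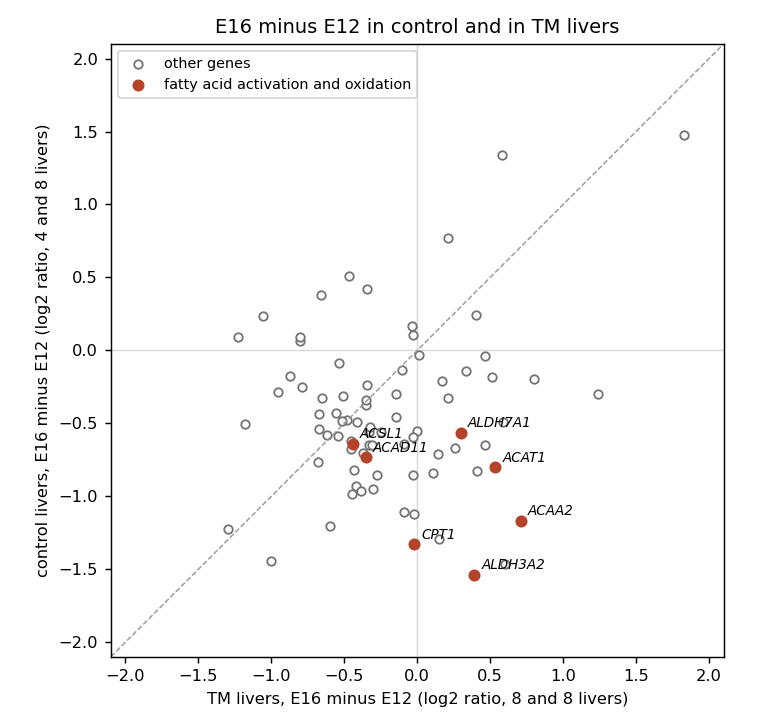
Each point is a gene, with the E16 minus E12 difference of log2 ratios in TM livers on the horizontal axis and that in control livers, without E16 replicate 7, on the vertical axis. Filled points are 7 genes of fatty acid activation and oxidation. The dashed line marks equal differences. Of these 7, ACSL1 at −0.44 in TM and −0.64 in control livers lies nearest to it, and ALDH3A2, at 0.39 and −1.54, farthest below.

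Set within the whole course of the control livers, E12 was the day of the highest mean in 40 of 84 genes and hatch (E30) in 21. The lowest mean fell at E16 in 13 genes, against 24 at E30, 23 at E24, 16 at E20, 7 at E28 and 1 at E12. Among the 13, NCOR averaged 0.25 ± 0.46 at E12, −0.87 ± 0.44 at E16 and 0.31 ± 0.41 at E20, and at hatch −0.60 ± 0.52 (SD, n = 8, 4, 8 and 8, replicate 7 left out). PPARA, at 0.34 ± 0.42 at E12 and −0.61 ± 0.84 at E16, was back at 0.11 ± 0.38 at E20. CPT1 averaged 1.26 ± 0.69 at E12, −0.07 ± 0.56 at E16 and −1.998 ± 1.17 at E30 (n = 8, 3 and 7). FASN, the lipogenic enzyme, averaged −0.37 ± 0.59, −1.35 ± 0.55 and −1.61 ± 0.78 at E12, E16 and E20, and 5.26 ± 2.27 at E30. CYP2C averaged −1.22 ± 0.92 at E12 and 2.07 ± 1.16 at E30, with −0.45 ± 0.91 between them at E16. TYMS, the thymidylate synthase of dividing cells, averaged 1.32 ± 0.48 at E12, 0.78 ± 0.55 at E16 and −2.11 ± 0.71 at E30. These courses are given as a description of the control livers, and the shift of the reference assays described above applies to E12 and E16 in them. Whether the reference assays also shifted at the later days was not tested.

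**Figure D5:**
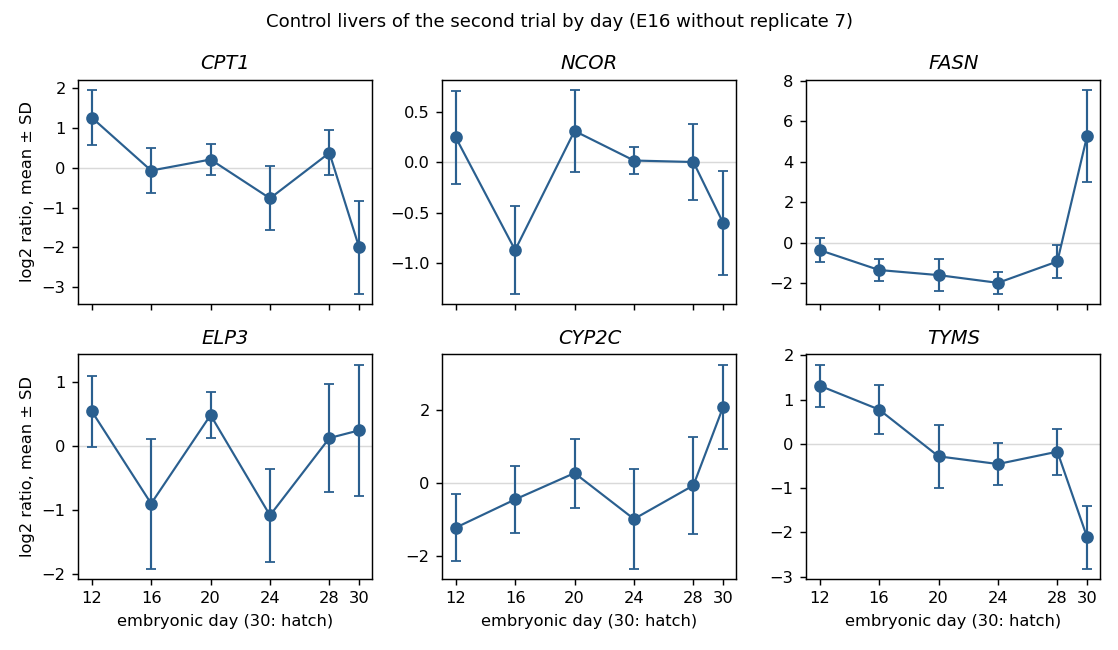
Mean ± SD of the log2 ratio of 6 genes in control livers by embryonic day, E12 to hatch (30), with E16 replicate 7 left out. NCOR is lowest at E16 (−0.87), CPT1 and TYMS are lowest at hatch (−1.998 and −2.11), and FASN and CYP2C are highest there (5.26 and 2.07).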

How the data were processed

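Livers of the second trial were used, with 5 E16 and 8 E12 control livers compared and 16 TM livers of the same days for the contrast. Ratios had been computed by the authors as 2 to the power of minus the ∆∆Ct against the geometric mean Ct of 4 reference assays, and deposited as relative expression ratios. The deposited Ct were exported by the authors from the Fluidigm instrument (unit: other, PCR cycles). R 3.6.2 is named in the submitters' processing notes. Recomputed from the Ct, every deposited log2 ratio of these livers was matched up to a constant per gene, which leaves differences between livers unchanged. 1 further column of the Ct table belonged to no named sample and was not used. Gene names are those of the files. ATG7 is described there as Autophagy Related 13, STAB1 as Stabilin 2 and TIA1 as TIA1-like 1. No sequences are printed. 1 gene of the panel is counted in its group but not reported here.

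Log2 ratios without a pseudocount were compared by limma 3.58.1 (R 4.3.3, lmFit and eBayes, Benjamini-Hochberg, adjusted p under 0.05) and, for each gene, by a two-sided permutation test on the means with exact enumeration (1287 splits of 5 against 8 livers, 495 of 4 against 8), with scipy 1.17.1 in Python 3.11.15 (numpy 2.4.6, pandas 2.3.3, matplotlib 3.10.9). Both were tested on simulated data. The members, lists and tests were chosen with earlier results of these data known. The genes named are the 3 members of each list with the smallest exact p, the reference assays and the markers. TUBA1C, EIF3, LDLR4 and further list members were named after their values were seen. Alternatives were other references, centring on the panel, other detection limits, a replicate block, other livers at E12, the methods' Student or Wilcoxon test, and each liver left out. The alternatives that combine a scale, all control livers or E16 replicate 3 with leaving out E16 replicate 7 were chosen after seeing the data.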

Additional observations from a re-analysis of the deposited data

Results flagged for a closer look

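Of 96 groups of log2 ratios or Ct examined, 7 held a liver farther from its group than Dixon's 95% critical value allows, and chance flags about 1 in 20. ALB (−12.56) and CPT1 (−5.56) in E16 control replicate 7 lay below the other E16 livers, at −1.31 to −0.02 and −0.46 to 0.57. IL18, a cytokine, was 3.03 in E16 replicate 3, against −0.81 to −0.32 in the others. At E12, replicate 4 was low for GLUT1 (−0.50, others 0.91 to 1.71) and HSP90AA1 (−0.24, others 0.21 to 0.56), replicate 6 for HNF4 (−1.79, others −0.05 to 0.85) and replicate 3 for HSF1 (−7.45, others 0.15 to 1.60). The cause of these values was not tested.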

How the results depend on the processing

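The count of genes past limma's adjusted p was 0 and became 1 with the 3 endogenous references (NCOR) and 12 with all control livers in one fit (1, NCOR, without replicate 7), and ran from 0 to 14 as each liver was left out, 14 without E16 replicate 3 (16 without replicates 3 and 7). It was 20 with limma's unadjusted p and 22 with the methods' test, none of which passed after Benjamini-Hochberg. The 25 genes past the unadjusted exact test became 10 after centring on the panel (9 without replicate 7) and 0 on Ct, and ran from 11 to 35 over livers left out. In values centred with replicate 7, that liver is centred only on the panel genes it had. For the contrast with TM livers the count was 0, 1 with endogenous references (NCOR) and 0 to 1 over livers left out, 1 (CPT1) without E16 control replicate 4. Replicate 7 has no Ct for HPRT1 (−1.28), STAB1 (−0.887) and USP9X (0.198), so that leaving it out could not move their Ct differences. Luciferase was −0.387 with and −0.577 without it, and the geometric mean of the references changed sign, from 0.0596 with it to −0.605 without it.

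Replicate numbers did not pair the livers: deviations of same-numbered livers correlated at 0.09, −0.05, −0.51 and −0.17 for replicates 1 to 4. With a replicate block no gene passed the adjusted p (smallest 0.176), 14 in place of 20 were under the unadjusted limma p, and the block fit changed the sign of HSBP1, HSF1, HSF3 and VLDLR (−0.47 for HSBP1, 0.020 for HSF1, 0.014 for HSF3 and 0.16 for VLDLR).

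Over 44 genes, 965 of the alternative values kept direction and side of the threshold, 169 lost and 23 gained it, and 68 changed sign. The values that changed sign follow. For those on Ct the sign is turned, so that a positive value means a lower Ct and more transcript at E16. On Ct they were 0.046 for ACLY, 0.30 for AMBRA1, 0.014 for ATF4, 0.39 for CEPT1, 0.028 for GLUT1, 0.12 for HGF, 0.098 for HNF4, 0.17 for HSF3, 0.051 for HSP90AA1, 0.045 for HSPA5, 0.97 for IL18, 0.42 for LXRA, 0.015 for RBBP4 and 0.065 for TYMS, and without replicate 7 0.046 for ACLY, 0.21 for ALB, 0.30 for AMBRA1, 0.014 for ATF4, 0.083 for BNIP3, 0.39 for CEPT1, 0.028 for GLUT1, 0.12 for HGF, 0.098 for HNF4, 0.17 for HSF3, 0.051 for HSP90AA1, 0.045 for HSPA5, 0.28 for IL18, 0.42 for LXRA, 0.78 for PLIN2, 0.015 for RBBP4, 0.023 for TIA1 and 0.065 for TYMS. Centred on the panel they were 0.18 for AMBRA1, 0.16 for BNIP3, 0.27 for CEPT1, 0.044 for HSF3, 0.16 for IL18, 0.30 for LXRA, 0.47 for PLIN2, 0.031 for TGFb1, 0.28 for TIA1 and 0.51 for VLDLR, and without replicate 7 0.18 for AMBRA1, 0.27 for CEPT1, 0.044 for HSF3, 0.16 for IL18, 0.30 for LXRA and 0.65 for PLIN2. With E12 TM livers in place of E12 controls they were −0.15 for CYP2C, 0.47 for IL18 and 0.012 for VLDLR. With all deposited Ct, IL18 was 1.03, and PLIN2 was 0.17 without replicate 7, also with all control livers in one fit, and with endogenous references PLIN2 was 0.16. Leaving out 1 liver changed the sign of GLUT1 (from −1.15 to 0.0019), HGF (from −1.10 to 0.50), HSBP1 (from −0.013 to 0.52), IL18 (from −1.24 to 0.043), PLIN2 (from −0.57 to 0.17) and VLDLR (from −0.65 to 0.13). The causes were not tested. The number of E16 livers limits the precision of every comparison here.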
